A study of Mus musculus with 20 samples.

Results

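Interleukin-10 (IL-10), both chains of its receptor, the 2 kinases bound to that receptor and 2 intracellular brakes on cytokine and NF-κB signaling were followed across 5 groups of mouse bone marrow-derived macrophages (BMDMs). The 7 genes, Il10, Il10ra, Il10rb, Jak1, Tyk2, Socs1 and Bcl3, were taken by symbol from a count table of 21963 gene entries. All 7 passed the filter on low counts and were among the 11707 genes tested.

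RNA was sequenced from 20 libraries to ask which transcripts change when mitochondrial Ca2+ uptake is reduced. WT BMDMs were left untreated (n = 4), given zymosan for 3 h at 2 particles per cell (n = 5), or loaded with 10 µM BAPTA-AM and given zymosan (n = 4). Mcu-/- BMDMs were left untreated (n = 4) or given zymosan in the same way (n = 3). Zymosan is a yeast cell wall preparation sensed through TLR2 and dectin-1, BAPTA-AM is a chelator that buffers intracellular Ca2+, and Mcu encodes the pore of the mitochondrial calcium uniporter. The mice were 15 to 25 weeks old, and the study describes its Mcu-/- BMDMs as coming from floxed Mcu mice with Cx3cr1-driven Cre, so deletion depends on cells that have used that promoter. No Mcu-/- cells were loaded with BAPTA-AM, and no untreated cells were. The labels call the samples biological replicates without naming animals or cultures, so the p-values measure the spread between these samples.

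IL-10 is a secreted cytokine that restrains macrophage activation. It binds IL10RA, the ligand-specific chain, together with IL10RB, a chain shared with other cytokines of the family. JAK1 sits on the first chain and TYK2 on the second, and they activate STAT3. SOCS1 is an inducible inhibitor of JAK kinases, and BCL3 is an atypical nuclear IκB protein that binds p50 and p52 homodimers and can hold back NF-κB target genes.

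Library totals ran from 14.4 to 23.95 M counts. Mcu, the targeted gene, was lower in Mcu-/- cells but still detected: its level in CPM (read counts brought to a common library size after TMM scaling) was 6.10 to 9.55 in WT cells, without overlap with 2.63 to 4.05 in Mcu-/- cells. These counts cover the whole gene and do not show which exons were deleted. Untreated Mcu-/- replicate 4 stood apart: the chi-square of its counts against the other 3 of its group averaged 209 to 217 over genes, while the other 28 within-group pairs had 1.60 to 6.20. The summed level of 7 macrophage markers was 13121 to 15276 CPM in WT cells and 14181 to 14535 in untreated Mcu-/- replicates 1 to 3, but 8358 in replicate 4 and 9075 to 9343 in the Mcu-/- zymosan libraries. The sum of 4 fibroblast markers was 2.13 to 5.00 CPM in WT libraries, 0.621 to 1.64 in untreated Mcu-/- replicates 1 to 3, 25.3 in replicate 4 and 40.5 to 49.3 in the Mcu-/- zymosan libraries. Only 2 of the 4 passed the filter, the collagen genes Col1a1 and Col1a2. With zymosan they averaged 21.7 and 23.2 CPM in Mcu-/- and 2.03 and 2.19 in WT, so this sum mostly reflects collagen. T cell markers reached at most 0.0853 CPM in any library. Replicate 4 and the Mcu-/- zymosan libraries thus shared marker levels that no other library had, and the part of this in the genotype differences was not tested. The zymosan responses of Mcu-/- cells and their differences from WT are given with and without replicate 4.

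Promoter sequence is shown for Socs1, the gene with the steepest zymosan response, and Bcl3, the gene that differed most between genotypes. RefSeq entries (GRCm38.p6) were found for 4 of the 7 genes, and Il10, Il10ra and Il10rb had none. The 250 bases before the start are given 5′ to 3′ on the gene's strand, at chr16:10785537-10785786 (minus strand) for Socs1 and chr7:19822756-19823005 (minus strand) for Bcl3, with capitals marking matches on either strand to any of 4 motifs.
Socs1: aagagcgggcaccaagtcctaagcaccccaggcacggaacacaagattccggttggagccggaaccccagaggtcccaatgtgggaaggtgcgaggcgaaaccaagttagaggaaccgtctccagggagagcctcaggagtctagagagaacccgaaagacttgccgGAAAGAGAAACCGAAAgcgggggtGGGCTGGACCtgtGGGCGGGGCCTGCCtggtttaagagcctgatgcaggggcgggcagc
Bcl3: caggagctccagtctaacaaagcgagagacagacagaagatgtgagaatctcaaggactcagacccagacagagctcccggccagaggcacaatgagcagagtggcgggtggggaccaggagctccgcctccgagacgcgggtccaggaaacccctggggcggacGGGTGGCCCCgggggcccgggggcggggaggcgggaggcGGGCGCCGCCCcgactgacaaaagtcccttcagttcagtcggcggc
The core of interferon response elements, GAAA followed by any 2 bases and GAAA again, was matched 2 times in the Socs1 promoter, 83 and 77 bases before the start, by overlapping matches. It was present in 2.98% of 32851 promoters of this length and was not matched in those of Bcl3, Jak1 or Tyk2. An NF-κB-like motif, GGG and CC with any 5 bases between them, was matched 3 times each in the Socs1 and Bcl3 promoters, in both with overlaps, and 1 time each in those of Jak1 and Tyk2, but 45.8% of all promoters held it. Of the other 2 motifs, the STAT-like TTCNNNGAA (7.02% of promoters) was matched in none of the 4, and a stricter NF-κB-like form, GGGA and CC with any 4 bases between them (17.6%), was matched in Tyk2. The interferon and the stricter NF-κB-like motifs were added after the Socs1 sequence and the matches of the first 2 motifs had been seen, so their matches are descriptions of these letters only.

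Zymosan raised 5 of the 7 genes in WT BMDMs and lowered 1, where 32.4% of all genes tested were higher and 36.8% were lower. The ligand, its own receptor chain, JAK1 and both brakes rose, and the shared receptor chain fell. The 6 genes with a call had no overlap between the groups, which also held for 33.1% of all genes tested in the higher and 36.4% in the lower direction. Higher genes made up 46.8% of all calls with TMM scaling and 18.6% with library totals, which moved the median of all genes from -0.04 to -0.54 on the log2 scale. In Mcu-/- BMDMs 5 of the 7 were called higher and 0 lower, where 34.3% of all genes were higher and 39.4% lower. Il10rb and Bcl3 were the 2 without a call there. Without untreated replicate 4 all 7 were called, 6 higher with Il10rb among them and Bcl3 lower, beside 39.2% and 42.4% of all genes.

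Il10 (chr1:131019845-131024974, mm10, plus strand) was at 9.12, 9.54, 9.55 and 8.86 CPM in the 4 untreated WT libraries and at 35.5, 34.0, 31.8, 31.3 and 30.3 in the 5 with zymosan. Every zymosan library was thus above every untreated one. The log2 fold change was 1.81 ± 0.11 (SE; edgeR quasi-likelihood test, adjusted p = 3.88e-11). In Mcu-/- BMDMs Il10 went from 7.36, 7.79, 7.52 and 4.40 CPM to 40.9, 40.9 and 44.0, a log2 rise of 2.63 ± 0.12 (edgeR, adjusted p = 7.98e-13). Untreated replicate 4 was the lowest of all 20 libraries, and without it the value was 2.47 ± 0.07.

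Socs1 (chr16:10782240-10785536, minus strand) was close to silent in untreated cells, with 1.44 to 1.63 CPM in WT and 1.71 to 2.17 in Mcu-/-. With zymosan it reached 246 to 297 CPM in WT and 248 to 283 in Mcu-/-. The log2 fold changes were 7.43 ± 0.09 in WT (edgeR, adjusted p = 1.85e-21) and 7.15 ± 0.09 in Mcu-/- (edgeR, adjusted p = 3.95e-21; 7.11 without untreated replicate 4). Their difference of -0.29 ± 0.12 did not pass the test (edgeR, adjusted p = 0.147). With BAPTA-AM and zymosan Socs1 was at 261 to 288 CPM, inside the range of unloaded cells.

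**Figure D1:**
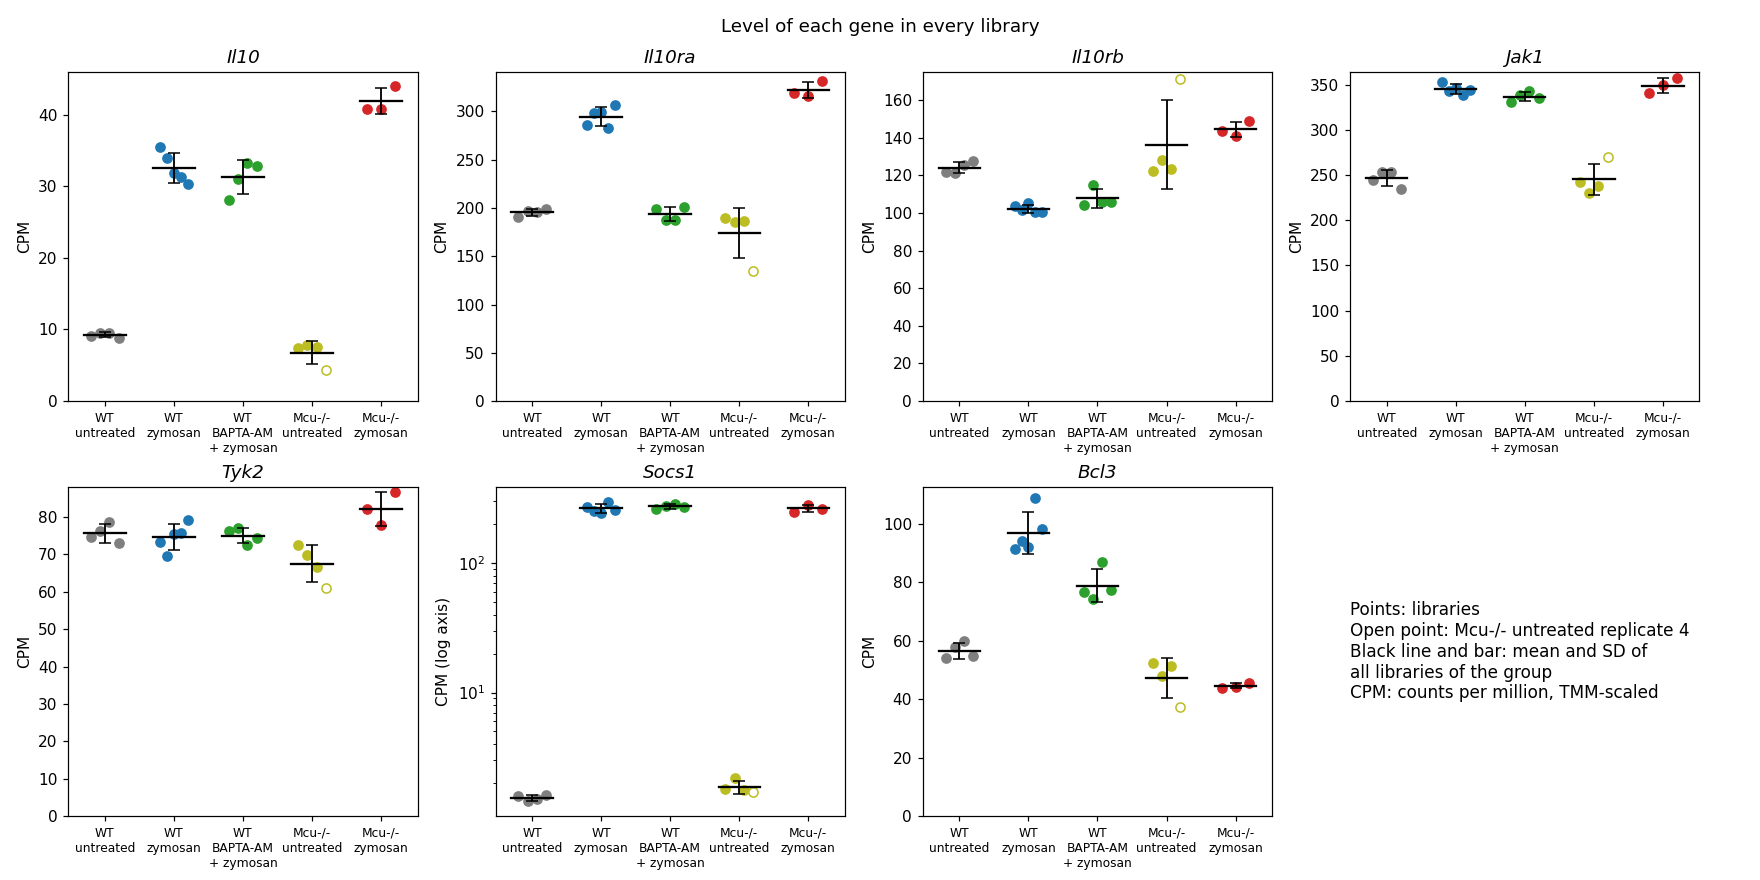
CPM of each gene in every library, by group, with the group mean and SD in black. The y axis is linear except for Socs1, which has a log axis. The Mcu-/- zymosan libraries lie between 44.0 and 45.7 CPM for Bcl3, below all 5 WT zymosan libraries, and between 40.9 and 44.0 for Il10, above all of them. The open point is untreated Mcu-/- replicate 4.

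With zymosan, Mcu-/- BMDMs had more Il10, Il10rb and Tyk2 and less Bcl3 than WT, and Il10ra, Jak1 and Socs1 had no call. These 3 higher and 1 lower calls stand against 31.8% of all genes higher and 30.3% lower, so a call in this comparison was common. The Mcu-/- libraries here are those with the lower macrophage and higher fibroblast marker sums. The 7 macrophage markers did not move one way: Cd68 (log2 1.91), Fcgr1 (log2 1.44) and Csf1r (log2 0.94) were higher in Mcu-/- and Itgam (log2 -1.66), Lyz2 (log2 -1.34) and Adgre1 (log2 -0.79) lower. Without untreated Mcu-/- replicate 4 in the fit, 4 genes were called higher and 1 lower, beside 36.4% and 33.7% of all genes. Il10 was 1.29-fold higher (log2 0.36 ± 0.11; edgeR, adjusted p = 0.00906). Il10 levels did not overlap between the 3 Mcu-/- and 5 WT libraries, and the exact permutation test gave p = 0.0179, the smallest this design allows.

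Bcl3 (chr7:19808462-19822770, minus strand) had the largest genotype difference of the 7. It was at 91.5, 94.3, 92.2, 109 and 98.1 CPM in WT with zymosan and at 44.0, 44.3 and 45.7 in Mcu-/- with zymosan. The Mcu-/- libraries were all lower, at a log2 difference of -1.12 ± 0.09 (edgeR, adjusted p = 1.55e-08). In WT, untreated levels of 54.0, 57.8, 60.0 and 54.9 CPM lay below all zymosan levels, a log2 rise of 0.78 ± 0.08 (edgeR, adjusted p = 6.74e-08). In Mcu-/- the untreated levels were 52.4, 48.1, 51.5 and 37.3 CPM, and the zymosan levels fell within this range (log2 -0.08 ± 0.09; edgeR, adjusted p = 0.419). Replicate 4 was the lowest of these: the zymosan libraries differed from it by 0.26 and from the mean of replicates 1 to 3 by -0.18 on the log2 scale. Without replicate 4, the fall was called at -0.18 ± 0.06 (edgeR, adjusted p = 0.00745).

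Il10rb (chr16:91406164-91425834, plus strand) fell with zymosan in WT cells and, with TMM scaling, had no such call in Mcu-/- cells. It was at 122, 121, 126 and 128 CPM in untreated WT cells and at 104, 101, 105, 100.3 and 100.3 with zymosan. WT levels fell without overlap, at a log2 difference of -0.28 ± 0.07 (edgeR, adjusted p = 0.00224). In Mcu-/- it was at 122, 128, 123 and 171 CPM untreated and at 143, 141 and 149 with zymosan, with no call (log2 0.08 ± 0.08; edgeR, adjusted p = 0.366). Without untreated replicate 4 it was called higher (log2 0.21 ± 0.04; edgeR, adjusted p = 4.39e-06). Here replicate 4 was the highest of all 20 libraries. The zymosan libraries were 0.21 above replicates 1 to 3 and -0.25 from replicate 4 on the log2 scale, so the direction in Mcu-/- cells depended on which untreated libraries were used. It also depended on the scaling. With library totals the Mcu-/- value was -0.43 and called lower (edgeR, adjusted p = 1.70e-05), or 0.15 relative to the median of all genes. With zymosan, Il10rb was 1.41-fold higher in Mcu-/- than in WT (log2 0.50 ± 0.08; edgeR, adjusted p = 3.61e-05).

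Il10ra (chr9:45253837-45269149, minus strand) was at 190.2, 197, 196 and 199 CPM in untreated WT and at 286, 299, 299, 283 and 306 with zymosan, a log2 rise of 0.59 ± 0.07 (edgeR, adjusted p = 5.77e-07). With library totals this was 0.10 and no longer called (edgeR, adjusted p = 0.262), or 0.64 relative to the median of all genes. In Mcu-/- it went from 189, 185, 187 and 135 to 319.6, 316 and 331, a log2 rise of 0.89 ± 0.08 (edgeR, adjusted p = 1.28e-08; 0.78 without untreated replicate 4). The 3 Mcu-/- zymosan libraries were all above the WT ones, yet the log2 difference of 0.13 ± 0.08 had no call (edgeR, adjusted p = 0.155). It was called when untreated Mcu-/- replicate 4 was left out of the fit, at the same size (edgeR, adjusted p = 0.000386). That library is in neither group of this comparison, and without it the biological coefficient of variation of the fit was 3.56% in place of 12.4%.

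Of the kinases, with TMM scaling, Jak1 rose in both genotypes and Tyk2 was called higher in Mcu-/- only. Jak1 (chr4:101152367-101265282, minus strand) rose from 235 to 254 CPM up to 338 to 353 in WT (log2 0.49 ± 0.04; edgeR, adjusted p = 4.97e-09) and by 0.51 ± 0.05 on the log2 scale in Mcu-/- (edgeR, adjusted p = 1.66e-08; 0.56 without untreated replicate 4). Its rise depended on the scaling: with library totals in place of TMM the WT value was -0.01, where the median of all genes was -0.54, so that relative to the median Jak1 was at 0.53. Tyk2 (chr9:21104068-21131243, minus strand) stayed at 69.7 to 79.2 CPM in WT with and without zymosan (log2 -0.02 ± 0.05; edgeR, adjusted p = 0.747). With library totals the Tyk2 value was -0.51 and called lower (edgeR, adjusted p = 1.16e-07), or 0.02 relative to the median. In Mcu-/- it was at 61.0 to 72.5 CPM untreated and 77.8 to 86.7 with zymosan (log2 0.28 ± 0.06; edgeR, adjusted p = 0.000167), a value that was 0.24 without untreated replicate 4, and that turned to -0.24 with library totals and was 0.34 relative to the median there. The Tyk2 difference between genotypes with zymosan was small, with overlapping libraries (log2 0.14 ± 0.05; edgeR, adjusted p = 0.0312).

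The zymosan responses differed between genotypes for 5 of the 7 genes, 4 with a larger value in Mcu-/- and 1 with a smaller one, where 15.2% and 20% of all genes were called in these directions. The log2 differences of responses were 0.81 ± 0.17 for Il10 (edgeR, adjusted p = 0.00128), 0.36 ± 0.11 for Il10rb (edgeR, adjusted p = 0.0166) and 0.30 ± 0.07 for Tyk2 (edgeR, adjusted p = 0.00477). Il10ra differed by 0.30 ± 0.11 (edgeR, adjusted p = 0.0408), and this call held under 11 of 26 other settings, with an adjusted p of up to 0.111 by edgeR. Bcl3 differed the other way, by -0.86 ± 0.12 (edgeR, adjusted p = 4.71e-05). Without replicate 4 the same 5 genes were called, at 0.66 for Il10, 0.19 for Il10ra, 0.49 for Il10rb, 0.26 for Tyk2 and -0.95 for Bcl3, beside 31% of all genes higher and 29.3% lower. The untreated Mcu-/- libraries left in that fit had fibroblast marker sums of 0.621 to 1.64 CPM, beside 40.5 to 49.3 with zymosan. Zymosan and this marker difference cannot be told apart in Mcu-/- cells there.

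Untreated Mcu-/- and WT cells had no call among the 7 genes, where 0.128% of all genes were higher and 0.222% lower by edgeR. By unadjusted p under 0.05 there were 1743 genes, and DESeq2's Wald test called 1 of the 7, Il10. Il10 was lower in all 4 Mcu-/- libraries (log2 -0.45 ± 0.12; edgeR, adjusted p = 0.146), and this was called without replicate 4 (log2 -0.30 ± 0.09; edgeR, adjusted p = 0.0422), where 1.83% of all genes were lower and 1.53% higher. For 5 of the 7 genes the 2 groups did not overlap (Il10, Il10ra, Tyk2 and Bcl3 lower in Mcu-/-, Socs1 higher), beside 3.71% of all genes in the lower and 3.38% in the higher direction, and the exact permutation test gave p = 0.0286 for each, the smallest that 4 against 4 allows.

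**Figure D2:**
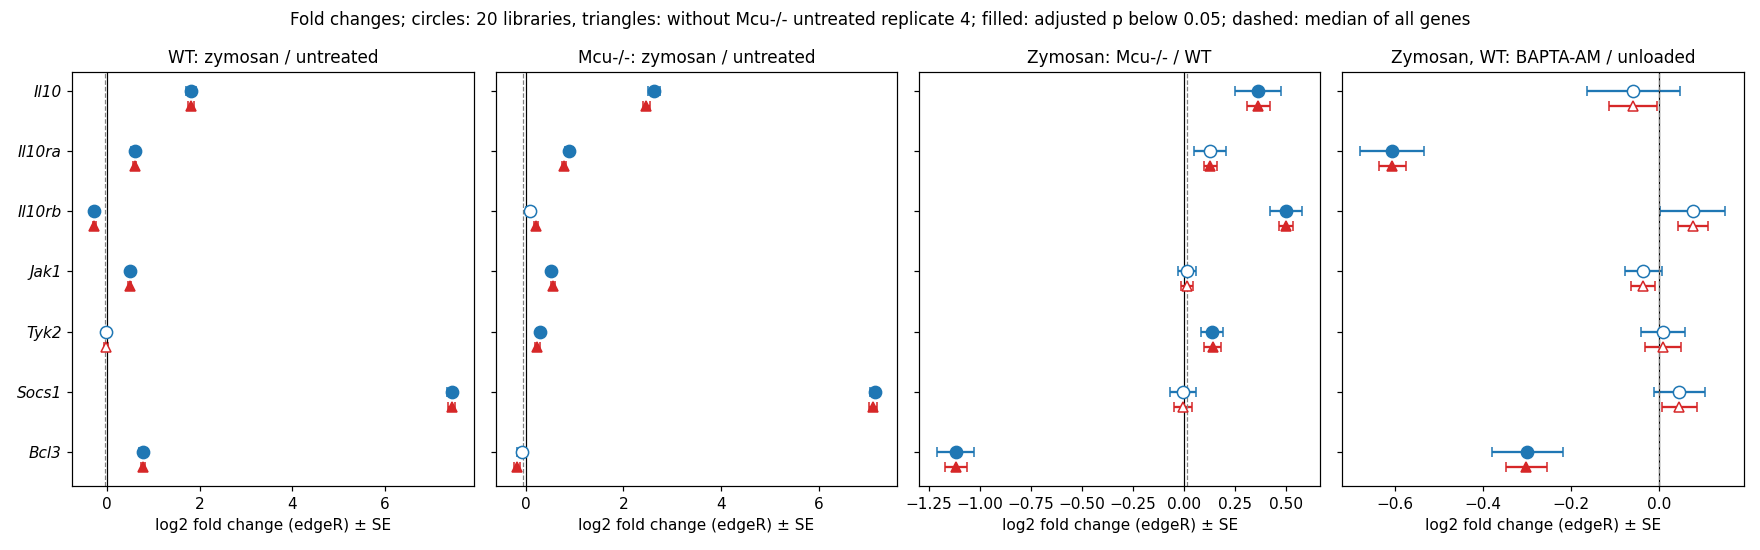
log2 fold change ± SE (edgeR) of the 7 genes in 4 comparisons, each with its own x axis. Circles use 20 libraries, triangles leave out untreated Mcu-/- replicate 4, filled symbols have an adjusted p under 0.05 and the dashed line is the median of all genes. Bcl3 lies at -1.12 between genotypes and Il10ra at -0.61 with BAPTA-AM.

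Buffering Ca2+ with BAPTA-AM before zymosan lowered the ligand-specific receptor chain and Bcl3, and gave no call for Il10, Il10rb, Jak1, Tyk2 or Socs1. The 2 lower and 0 higher calls stand against 6.33% of all genes lower and 6.43% higher. Higher genes made up 50.4% of all calls, 74.9% with library totals and 41.5% with DESeq2 size factors. Il10ra was at 199, 188, 187 and 201 CPM with BAPTA-AM, all below the unloaded 283 to 306 (log2 -0.61 ± 0.07; edgeR, adjusted p = 1.64e-05). These levels overlapped those of untreated WT cells (log2 -0.01 ± 0.08; edgeR, adjusted p = 0.893). With library totals this Il10ra difference was -0.44 and called lower (edgeR, adjusted p = 0.000142), or 0.01 relative to the median of all genes. No loaded cells were left without zymosan, so whether zymosan raised Il10ra within loaded cells could not be measured. Bcl3 was at 76.6, 74.3, 87.1 and 77.5 CPM, below all unloaded libraries (log2 -0.30 ± 0.08; edgeR, adjusted p = 0.0176) and above untreated cells (log2 0.48 ± 0.08; edgeR, adjusted p = 6.14e-05). With library totals the second value was 0.05 and not called (edgeR, adjusted p = 0.656), or 0.50 relative to the median of all genes. The Bcl3 call with BAPTA-AM was lost without WT zymosan replicate 4 (adjusted p = 0.051 by edgeR) and without BAPTA-AM replicates 1, 2 or 4. It was also lost with library totals and with a replicate block. Il10 was at 28.1, 31.0, 33.3 and 32.8 CPM and overlapped the unloaded libraries (log2 -0.06 ± 0.10; edgeR, adjusted p = 0.81). The exact permutation test also put Il10rb past the threshold (p = 0.0317, adjusted p = 0.0476), at a log2 difference of 0.08 with overlapping libraries. Against untreated WT cells, loaded cells with zymosan had 4 of the 7 genes higher and 1 lower, beside 31.9% and 34.2% of all genes.

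Levels can be compared between genes only per length, here as CPM per kb of exon. In untreated WT cells Il10ra was the highest at 55.9 ± 1.03 (SD, n = 4), followed by Jak1 at 34.1 ± 1.26 and Il10rb at 32.6 ± 0.809, whose libraries overlapped. Bcl3 stood at 22.9 ± 1.11, Tyk2 at 11.01 ± 0.357, Il10 at 7.08 ± 0.256 and Socs1 at 0.528 ± 0.0282. With zymosan Socs1 moved from the lowest to the highest, at 91.4 ± 6.90 (n = 5) beside 84.2 ± 2.78 for Il10ra, and Il10 reached 24.9 ± 1.62 beside Il10rb at 26.8 ± 0.561. The libraries of each of these pairs overlapped. In Mcu-/- with zymosan Il10 was at 32.0 ± 1.39 and Bcl3 at 18.0 ± 0.368 (n = 3), the reverse of their order in WT, where Bcl3 was at 39.2 ± 2.89.

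**Figure D3:**
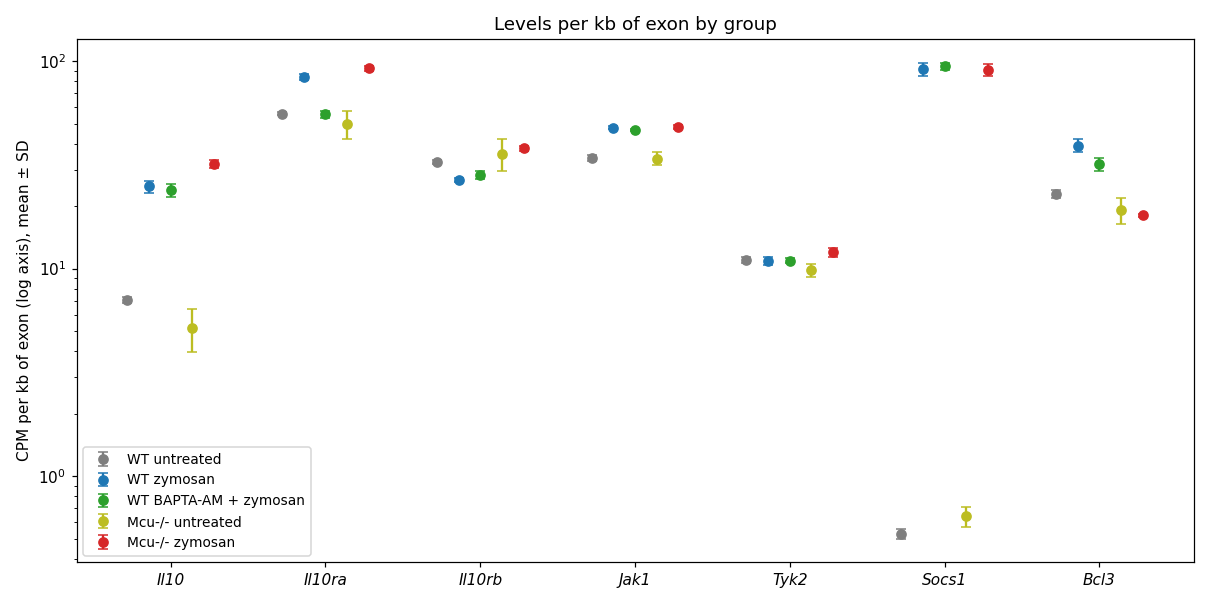
Mean ± SD of CPM per kb of exon for each gene and group, on a log axis. Socs1 runs from 0.528 in untreated WT to 91.4 with zymosan, and Tyk2 stays between 9.83 and 11.97 in all 5 groups.

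The other ligands of the family were hardly present: of 7 listed, Il10 and Il19 were tested. Il19, an IL-10 family cytokine, was at 0.756 CPM in WT and 1.81 in Mcu-/- with zymosan (log2 1.25 ± 0.28; edgeR, adjusted p = 0.00124). Among 7 tested class II cytokine receptor chains, 3 were higher and 2 lower in Mcu-/- with zymosan, with a median log2 fold change of 0.23, where 31.8% and 30.3% of all genes were called. Il10rb lies between Ifnar2 and Ifnar1 in a cluster of receptor genes on chr16 that spans 193 kb and ends with Ifngr2. Of these neighbours, Ifnar2 (log2 0.64) was higher, and Ifnar1 (log2 -0.55) and Ifngr2 (log2 -0.29) were lower, so the cluster did not move one way. Ifngr1, the ligand-binding chain for interferon-γ, was higher in Mcu-/- (log2 1.24) and with BAPTA-AM (log2 0.59).

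Of 11 JAK and STAT genes tested, 3 were higher and 5 lower in Mcu-/- with zymosan, beside 31.8% and 30.3% of all genes. Their median log2 fold change was -0.01 beside 0.02 over all genes. Stat3, the main mediator of IL-10 signals, was at 458 CPM in WT and 266 in Mcu-/- (log2 -0.78 ± 0.06; edgeR, adjusted p = 4.12e-09). Jak3 (log2 -0.92) and Stat5a (log2 -0.66) were also lower. With BAPTA-AM, Jak2 (log2 -0.43) and Stat5a (log2 -0.25) were lower and none was higher, beside 6.33% of all genes lower and 6.43% higher.

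Of 15 cytokine signaling inhibitors tested, 2 were higher and 6 lower in Mcu-/- with zymosan, beside 31.8% and 30.3% of all genes, and their median log2 fold change was 0.03 beside 0.02 over all genes. Socs5 (log2 0.66) and Socs7 (log2 0.59), of the SOCS family, were the higher ones. Ptpn1, a phosphatase of JAK kinases, was at 455 CPM in WT and 193 in Mcu-/- (log2 -1.24), and Socs3, the inhibitor induced by STAT3, at 988 and 687 (log2 -0.52). Both were also lower with BAPTA-AM, at log2 -0.43 and -0.38, as was Cish (log2 -0.82). Socs1 thus had no call in either comparison where Socs3 was lower in both.

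Of 11 tested genes on a list of IL-10 and STAT3 responses, 7 were lower and 1 higher in Mcu-/- with zymosan. Of all genes, 30.3% were lower and 31.8% higher, and the median log2 fold change was -0.55 in the list beside 0.02 over all genes. With BAPTA-AM 6 of the list were lower and 0 higher, beside 6.33% and 6.43% of all genes. The median there was -0.44 beside 0.00 over all genes. The lowest in Mcu-/- were Sbno2, a STAT3-induced corepressor (log2 -1.91), Il4ra, the IL-4 receptor chain (log2 -1.27), and Bcl3. The exception was Hmox1, heme oxygenase (log2 0.97), at 1181 CPM in WT and 2311 in Mcu-/-. The lowest with BAPTA-AM were Ddit4 (log2 -1.90), Cd163, a scavenger receptor (log2 -1.09), and Nfil3, a transcription factor (log2 -0.80). Ddit4 and Cd163 had low levels, at 0.893 and 1.49 CPM with BAPTA-AM and 3.34 and 3.18 without it. Il10 itself was higher in Mcu-/- and had no call with BAPTA-AM.

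**Figure D4:**
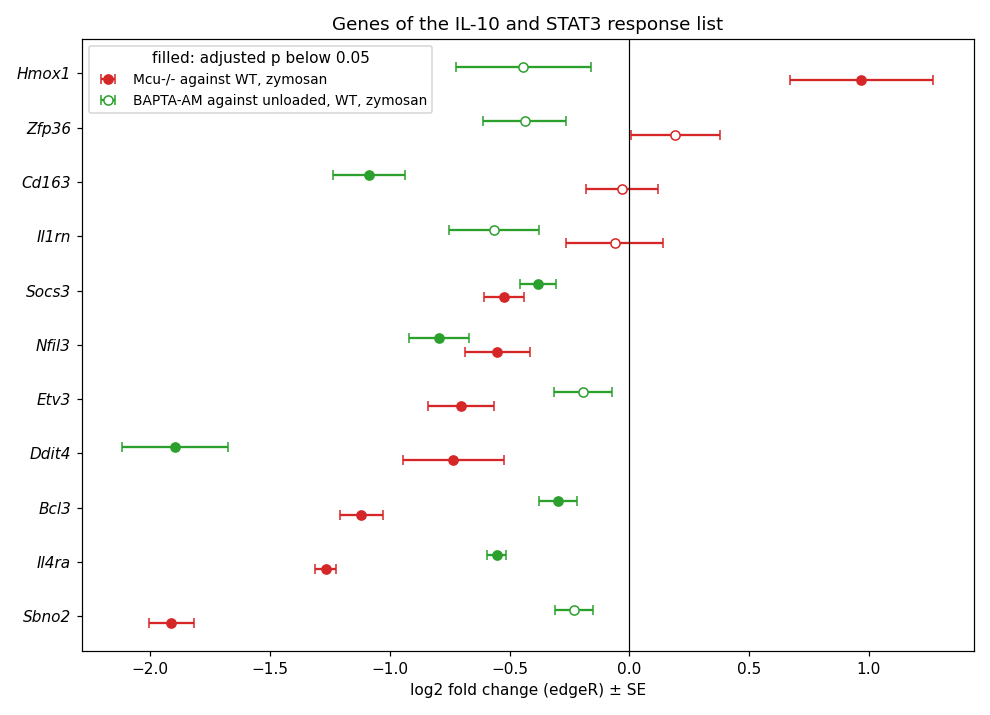
log2 fold change ± SE (edgeR) of the 11 tested genes on the IL-10 and STAT3 response list, for Mcu-/- against WT with zymosan (red) and BAPTA-AM against no loading in WT cells with zymosan (green). Filled points have an adjusted p under 0.05. Sbno2 is at -1.91 and Hmox1 at 0.97 between genotypes.

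Of 18 listed regulators of Il10 transcription, 7 were higher and 5 lower in Mcu-/- with zymosan, with a median log2 fold change of 0.10, beside 31.8% and 30.3% of all genes called. Higher were Hdac11 (log2 1.75), Rps6ka5, which encodes the kinase MSK1 (log2 1.22), and Prdm1 (log2 0.69). Hdac11 was barely expressed, at 0.386 CPM in WT and 1.32 in Mcu-/-. Lower were Cebpb (log2 -1.28), Sik3 (log2 -0.63) and Nfil3 (log2 -0.55). With BAPTA-AM, 2 were higher and 4 lower, Maf among the latter (log2 -0.35). Of 8 genes of the IκB family and p50 and p52, 4 were higher and 2 lower in Mcu-/- with zymosan, beside 31.8% and 30.3% of all genes. Their median log2 fold change was 0.22. The 2 lower were Bcl3 and Nfkbid (log2 -1.08), and Nfkbie (log2 1.23), Nfkbia (log2 0.45) and Nfkbib (log2 0.26) were among the 4 higher. With BAPTA-AM 4 were lower and 0 higher, with a median of -0.29, beside 6.33% and 6.43% of all genes.

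Several list counts grew when untreated Mcu-/- replicate 4 was left out of the fit, as did the background of 16.5% lower and 15.3% higher with BAPTA-AM. With BAPTA-AM the response list then had 11 lower of 11, the JAK and STAT list 6 lower of 11 and the inhibitors 7 lower of 15. In Mcu-/- with zymosan the response list had 7 lower and 2 higher, and the inhibitors 6 lower and 5 higher. Of all genes, 33.7% were lower and 36.4% higher there.

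Genes whose centred log2 CPM followed a member most closely over the 20 libraries were found by the root mean square (RMS) difference among 8349 candidates. Lrrfip1 was nearest to Il10ra at an RMS of 0.07, with group means from 176 to 306 CPM. Tmem131 and Ikbke, a kinase of the IκB kinase family, were nearest to Bcl3 at 0.11 each. Ikbke was at 295 CPM in untreated WT, 504 with zymosan and 259.8 in Mcu-/- with zymosan. Swap70 and Tlr2, a zymosan receptor gene, were nearest to Il10 at 0.19 each, and Tnfsf15 was nearest to Socs1 at 0.28.

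Changes in a bulk sample do not separate fewer cells of a type from less RNA per cell. Shared exon bases also limit some counts, since the strand setting of the counting is not stated: Tyk2 shares 554 bases with the antisense gene 1700084C06Rik and Bcl3 shares 161 with the antisense Gm16175. Il10rb shares 569 bases with the same-strand gene Gm21970, which had at most 2 counts in a library.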

How the data were processed

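The authors deposited 1 table of raw counts per gene for 20 libraries. Per the paper's methods, adaptors were removed with cutadapt, paired reads were mapped to mm10 with STAR and counted with HTSeq, and the authors tested with DESeq2. The table has 21963 entries and no rows of unassigned reads. The Mcu-/- zymosan columns are numbered 3, 4 and 5 while the labels count 1 to 3, so they were assigned by group only.

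Counts were tested in R 4.3.3 with edgeR 4.0.16 (filterByExpr, TMM, quasi-likelihood, 1 coefficient per group over all 20 libraries), with Benjamini-Hochberg adjustment over all 11707 genes tested and a call at an adjusted p under 0.05. Steps were tested on simulated data. Each gene was also compared by an exact two-sided permutation test on log2(CPM + 0.5), adjusted over 42 tests. Alternatives were DESeq2 1.42.0 (Wald test and size factors), library totals, no filter, the groups compared alone, a replicate block and leaving out each library.

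The members and lists were chosen with earlier results of these data known, and the lists were written by hand. All members are named. A gene that the naming rule picks is not reported here. From the lists, up to 3 called genes per direction with the largest change in either zymosan comparison are named, and for Il10, Il10ra, Socs1 and Bcl3 the genes nearest by RMS of centred log2 CPM. Gene positions are from GENCODE M21 (mm10). Of the 4 promoter motifs, 2 were added after sequence had been seen.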

Additional observations from a re-analysis of the deposited data

Results flagged for a closer look

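Over the 7 genes and Mcu, 32 sets of 4 or 5 libraries were searched for a library far from the rest of its group (Dixon's test at 95%), which chance alone flags in about 1 of 20 sets. Of 4 such values, 3 were untreated Mcu-/- replicate 4: Il10 at 4.40 CPM, Il10ra at 135 CPM and Il10rb at 171 CPM. The fourth was Il10rb at 115 CPM in BAPTA-AM replicate 2, the highest of its group.

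The zymosan response differed between genotypes by the interaction test in edgeR for 5 genes, with log2 differences (Mcu-/- minus WT) of 0.81 for Il10, 0.30 for Il10ra, 0.36 for Il10rb, 0.30 for Tyk2 and -0.86 for Bcl3. Against untreated replicate 4 alone, the log2 responses in Mcu-/- cells were 3.11 for Il10, 1.25 for Il10ra, -0.25 for Il10rb, 0.43 for Tyk2 and 0.26 for Bcl3. Against the mean of replicates 1 to 3 they were 2.40, 0.78, 0.21, 0.24 and -0.18.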

How the results depend on the processing

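Of 1302 comparisons of a member's log2 fold change with its value under another setting, 1220 kept the direction and side of the threshold. With library totals, the median of all genes moved to -0.54 in the WT zymosan response, -0.58 in the Mcu-/- response and -0.46 with BAPTA-AM against untreated, and the share of calls that were higher moved from 46.8% to 18.6% (WT response), 46.5% to 19.0% (Mcu-/- response), 48.3% to 19.9% (BAPTA-AM against untreated) and 50.4% to 74.9% (BAPTA-AM against unloaded; 41.5% with DESeq2 size factors, 40.0% with the Wald test). There Jak1 turned to -0.0062 in WT, -0.010 in Mcu-/-, -0.0042 in the difference of responses and -0.036 between genotypes with zymosan. Also there, Il10rb turned to -0.43 and Tyk2 to -0.24 in the Mcu-/- response, both called lower, and with BAPTA-AM Il10 turned to 0.0026 and Jak1 to 0.025. With DESeq2 size factors and the Wald test, values near 0 turned: Tyk2 in the WT response (0.020 and 0.019), with BAPTA-AM (-0.011 and -0.010) and with BAPTA-AM against untreated (0.0093 and 0.0091), and Il10ra there (0.0076 and 0.0077).

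Genes called between untreated genotypes, 41, became 112 with the Wald test, 5 with the groups alone, 22 with the replicate block and 418 with the groups alone without replicate 4, and 22 to 391 when 1 library was left out; members called, 0, became 1 with the Wald test (Il10) and with the groups alone without replicate 4 (Bcl3), and 0 to 1 leaving out 1 library (Il10, without untreated Mcu-/- replicate 4). Genes called with BAPTA-AM, 1494, became 3529 with the groups alone and 879 with the replicate block (1036 to 3712 leaving out 1), and the 2 members called became 1 with library totals and the replicate block (1 to 2). Bcl3 was the member lost. Genes called in the difference of responses, 4122, became 7037 with the groups alone without replicate 4 (3414 to 7039 leaving out 1, the highest without untreated Mcu-/- replicate 4). The replicate numbers did not pair samples: 16 correlations of same-numbered deviations lay between -0.088 and 0.073.

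Leaving out 1 library turned the sign of values near 0: Jak1 between untreated genotypes (-0.058 to 0.021), in the difference of responses (-0.0047 to 0.075) and between genotypes with zymosan (-0.0023 to 0.033), Tyk2 in the WT response (-0.041 to 0.0045), with BAPTA-AM (-0.016 to 0.030) and against untreated (-0.029 to 0.0082), Il10ra there (-0.031 to 0.0031) and Socs1 between genotypes with zymosan (-0.055 to 0.039). The Il10ra difference of responses was lost with library totals, no filter and the groups alone, the Tyk2 genotype difference with library totals and no filter, and both without single libraries. The cause was not tested.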
